A study of Homo sapiens with 18 samples.

Results

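The 10 genes described here code for structural proteins of the centromere and the kinetochore: CENPA, CENPC, CENPN, CENPU (also called MLF1IP), DSN1, NDC80, SPC25, ZWINT, CENPE and CENPF. They were taken as a list of symbols matched to the array's annotation. All 10 were found, on 14 of the array's 22277 probe sets, and all 10 were among the 7828 genes tested. Each gene is followed through the probe set naming that gene alone with the highest mean over the 18 arrays. The arrays were Affymetrix expression arrays of total RNA from U251, an established human glioblastoma cell line. Cells were given an siRNA against MPS1, the spindle checkpoint kinase encoded by TTK (siMPS1), a negative-control siRNA (siNeg), or no transfection (Control). Each treatment was sampled 6, 24 and 48 h after transfection with 2 arrays, which gave 9 groups, and the design asks what loss of MPS1 mRNA does to gene expression beyond transfection itself. The siRNA dose was 2 pmol. Neither the siRNA sequences nor the reagent, nor how replicates were made, is given in the sources used here. The p-values therefore measure only the spread between these arrays, which may be technical. RNA came from whole cultures, in which fewer cells of one kind and less RNA per cell cannot be told apart.

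The centromere is marked by nucleosomes that carry the histone H3 variant CENP-A, on which a constitutive network of proteins, CENP-C, CENP-N and CENP-U among them, sits through the cell cycle. In mitosis this network and CENP-C recruit the MIS12 complex, which includes DSN1, and the NDC80 complex, which includes NDC80 and SPC25 and holds the spindle microtubules. ZWINT links KNL1 to the proteins of the corona, where the kinesin CENP-E and the large coiled-coil protein CENP-F are found. MPS1 works at this structure: it binds the NDC80 complex and phosphorylates KNL1 while a kinetochore is unattached. Transcripts of several of these genes, CENPA, CENPE and CENPF among them, are known to peak in G2 and mitosis in cycling human cells.

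Promoter sequence of 7 members is shown so that genes lower in siMPS1 cells at 48 h against both other treatments (SPC25, CENPA, CENPN, CENPU and CENPF) can be set beside 2 that were not called there (NDC80 and DSN1). Each stretch has 140 bases, from 130 before the annotated start to 10 after it, is read 5' to 3' on the strand of the gene, and comes from the RefSeq tables of build GRCh38.p14. The stretches lie at chr2:168890421-168890560 (minus strand, SPC25), chr2:26785926-26786065 (plus strand, CENPA), chr16:81007084-81007223 (plus strand, CENPN), chr4:184734087-184734226 (minus strand, CENPU), chr1:214603065-214603204 (plus strand, CENPF), chr18:2571427-2571566 (plus strand, NDC80) and chr20:36773754-36773893 (minus strand, DSN1). Capitals mark exact matches, on either strand, to TTTGAA or TTCGAA (the cell cycle homology region, CHR, a site of repressor and activator complexes of late cell cycle genes), CCAAT (the box bound by NF-Y), and TTGGCGC or TTCCCGC (forms of the E2F site). A match on the other strand shows its reverse complement, as ATTGG does for the NF-Y box.
SPC25: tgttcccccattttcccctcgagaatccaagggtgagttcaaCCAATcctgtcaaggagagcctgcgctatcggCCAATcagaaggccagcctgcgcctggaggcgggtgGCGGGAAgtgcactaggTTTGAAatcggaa
CENPA: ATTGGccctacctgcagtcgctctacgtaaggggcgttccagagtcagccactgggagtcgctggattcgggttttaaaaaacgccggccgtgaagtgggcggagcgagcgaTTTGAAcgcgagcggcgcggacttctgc
CENPN: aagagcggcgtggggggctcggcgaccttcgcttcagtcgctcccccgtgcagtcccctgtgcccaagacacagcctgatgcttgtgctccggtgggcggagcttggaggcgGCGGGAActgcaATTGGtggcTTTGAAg
CENPU: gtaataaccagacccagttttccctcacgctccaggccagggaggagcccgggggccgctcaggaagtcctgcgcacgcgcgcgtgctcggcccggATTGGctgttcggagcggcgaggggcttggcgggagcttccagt
CENPF: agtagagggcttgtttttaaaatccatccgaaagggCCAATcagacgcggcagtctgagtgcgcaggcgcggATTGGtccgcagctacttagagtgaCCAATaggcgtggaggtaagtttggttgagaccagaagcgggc
NDC80: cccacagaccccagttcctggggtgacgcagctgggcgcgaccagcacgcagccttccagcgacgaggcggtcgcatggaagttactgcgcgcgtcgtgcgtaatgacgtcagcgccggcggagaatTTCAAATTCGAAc
DSN1: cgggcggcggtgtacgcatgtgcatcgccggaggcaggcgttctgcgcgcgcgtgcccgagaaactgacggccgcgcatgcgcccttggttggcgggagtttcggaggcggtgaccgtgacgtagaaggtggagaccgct

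Positions count from 1 at the first transcribed base and from -1 upstream of it, and no matches overlapped. In SPC25 a TTTGAA lay across the annotated start, from base -3 to base 3, behind CCAAT boxes that began 88 and 56 bases before the start. CENPA carried TTTGAA from 18 to 13 bases before its start. NDC80 had TTTGAA on the opposite strand from base -3 to base 3, directly followed by TTCGAA at bases 4 to 9. Over the full windows of 300 bases, 250 before and 50 after the start, 7 of the 10 members held TTTGAA (CENPA, CENPC, CENPN, NDC80, SPC25, ZWINT and CENPF), against 18.2% of 27305 genes with a window in the table. CCAAT was found in 7 of 10 (CENPA, CENPC, CENPN, CENPU, SPC25, ZWINT and CENPF), against 39.7% of genes. TTCCCGC occurred in 3 members (CENPA, CENPN and SPC25), against 7.82% of genes, TTGGCGC in 1 (ZWINT), against 3.66%, and TTCGAA in 1 (NDC80), against 1.82%. CENPE and DSN1 held none of these letters in their windows. A gene counted once if any of its windows matched. Genes with and without TTTGAA were found among those called lower against siNeg at 48 h and among those not called there. The same held for CCAAT. CENPC, not called in siMPS1 cells at 48 h against either treatment, held CCAAT from 43 and 129 bases before its start. Its sequence is not among the stretches shown. CENPE, lower against siNeg at 48 h, held no CCAAT. A match is a description of the sequence only.

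TTK, the targeted gene, had log2 signals of 4.07 and 4.27 in siMPS1 cells at 6 h, 5.23 and 4.74 at 24 h and 4.78 and 4.26 at 48 h. In siNeg cells they were 5.48 and 5.71, 6.86 and 6.89, and 6.72 and 6.92 at the same times, and in Control cells 5.34 and 5.72, 7.13 and 6.81, and 6.57 and 6.91. All levels are log2 of the signal plus 3 and are followed within a probe set, not compared between genes. At each time both siMPS1 arrays were below all 4 others, and TTK was called lower against siNeg and against Control at 6, 24 and 48 h by limma. A gene was called at a Benjamini-Hochberg adjusted p under 0.05 over the 7828 genes. Of 7 glial or glioblastoma markers, 6 passed the filter on low signals: VIM, CD44, NES, FABP7, SOX2 and, at a low level, GFAP; S100B did not. None of the 9 measured blood, epithelial and endothelial markers passed, and of 2 measured neuronal markers SYT1 did. The 3' control probe sets of ACTB exceeded the 5' ones by 0.87 and 0.92 (log2) on the siMPS1 arrays at 48 h, against 0.10 to 0.43 on the other 16 arrays. For GAPDH the difference was 0.29 and 0.30, against -0.03 to 0.14. A larger difference is a usual sign of degraded or less completely copied RNA, and this measure stood apart in siMPS1 cells at 48 h, as the plot of control probe sets shows.

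**Figure D1:**
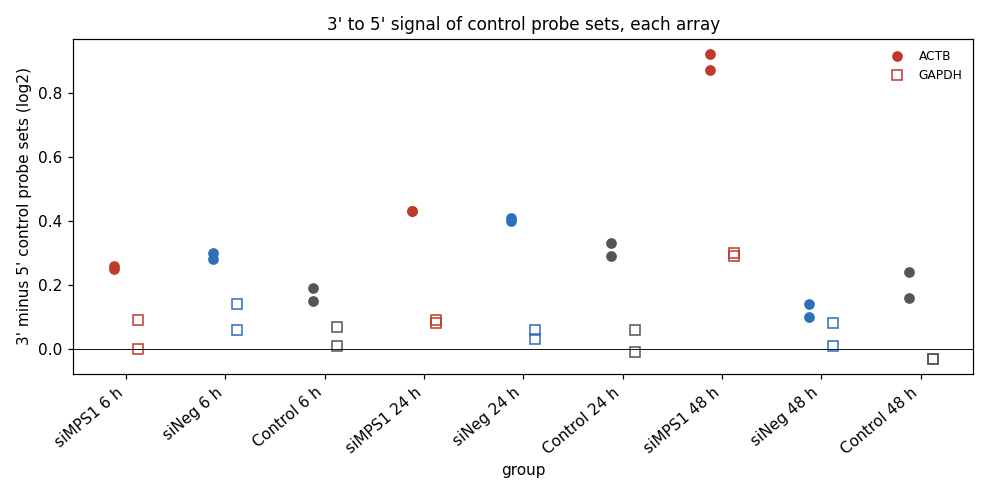
Difference between 3' and 5' control probe sets (log2, vertical axis) of ACTB (filled circles) and GAPDH (open squares) on each of the 18 arrays, by group along the horizontal axis (siMPS1 red, siNeg blue, Control grey). The 2 siMPS1 arrays at 48 h stand above all others for both genes, at 0.87 and 0.92 for ACTB and 0.29 and 0.30 for GAPDH.

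Between 6 and 24 h most of these genes rose in every treatment. Called higher at 24 h than at 6 h were 9 of 10 in siMPS1 cells, where 26.4% of all genes were called higher, 8 of 10 in siNeg cells (25.2%) and 8 of 10 in Control cells (27.1%). The median log2 change of the 10 was 1.12 in siMPS1, 1.24 in siNeg and 1.16 in Control cells, beside medians over all genes of 0.01, 0.04 and 0.12. On the probe sets followed, NDC80, SPC25, CENPE and CENPF rose by 1.69 to 2.20 in each treatment, DSN1 was called in none, and CENPC was called in siMPS1 cells alone. From 24 to 48 h the treatments parted. In siMPS1 cells 7 genes fell and 1, DSN1, rose (11.8% and 12.6% of all genes), with a median of -0.48 beside 0.01 over all genes. Other probe sets of CENPF (209172_s_at, -0.29, adjusted p = 0.429, and 207331_at, -1.11, adjusted p = 0.0792) and CENPN (222118_at, -0.42, adjusted p = 0.0712) were not called for this step by limma. That of CENPA (204962_s_at, -0.71) was. In siNeg cells CENPU rose and none fell (13.6% of all genes were called higher, 15.6% lower), and in Control cells CENPE fell and none rose (11.6% lower, 8% higher).

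**Figure D2:**
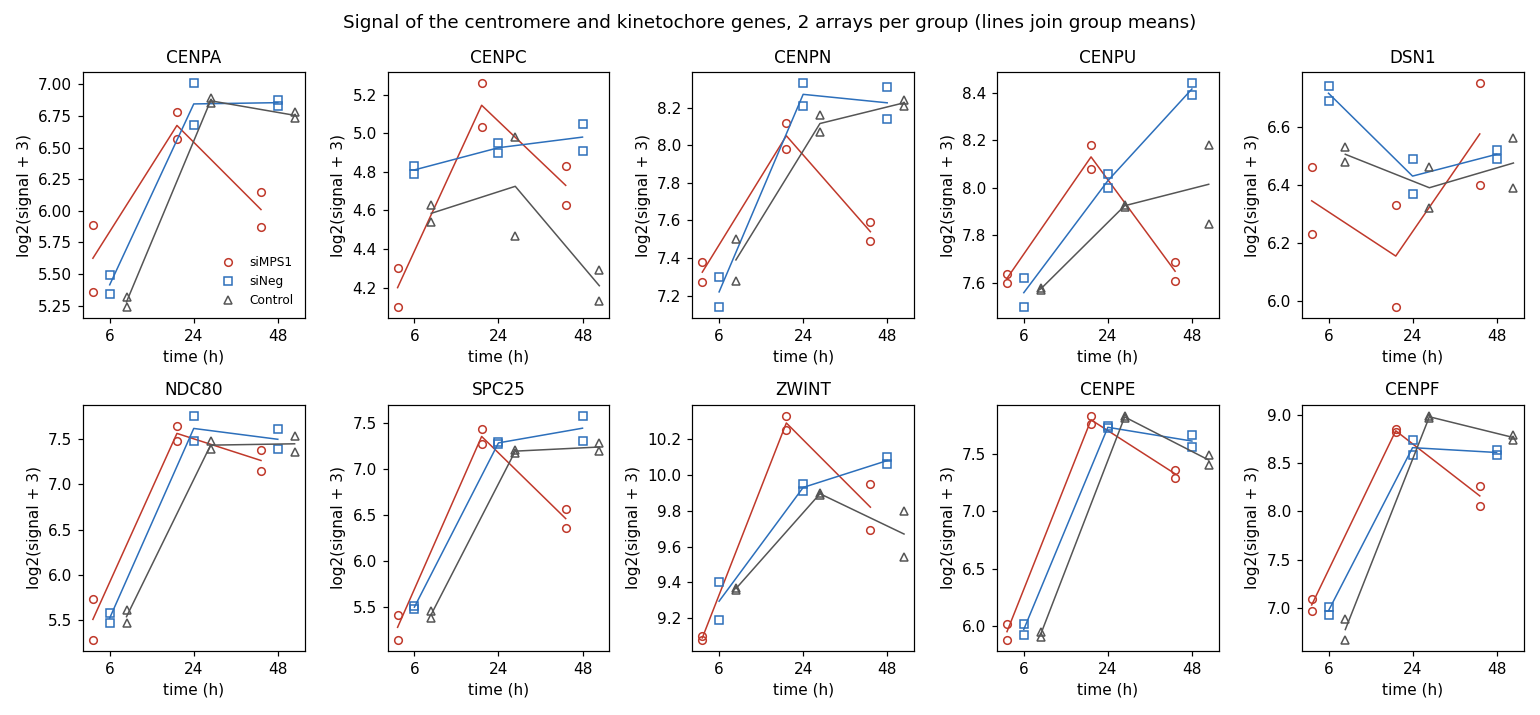
Log2 of the signal plus 3 (vertical axis) of each of the 10 genes at 6, 24 and 48 h (horizontal axis); points are single arrays, lines join the means of 2 arrays, and colours and symbols mark siMPS1, siNeg and Control. For SPC25 at 48 h the siMPS1 arrays lie at 6.36 and 6.56, below the siNeg arrays at 7.31 and 7.58 and the Control arrays at 7.20 and 7.28.

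At 48 h, limma called 7 of the 10 genes lower in siMPS1 cells than after the negative siRNA, and none higher (13.5% of all genes were called lower and 15.7% higher). The median difference was -0.37 on the log2 scale, beside 0.03 over all genes. The difference from siNeg was largest for SPC25, with CENPA, CENPU and CENPN next, and smaller for CENPF, CENPE and ZWINT. CENPC, DSN1 and NDC80 were not called. Against Control, 5 were lower (SPC25, CENPA, CENPN, CENPF and CENPU) and none higher (12.2% and 15.3% of all genes), with a median of -0.28 beside 0.05. These comparisons share the siMPS1 arrays, which are also the arrays with the high 3' to 5' differences given above. The part of RNA quality in these lower levels was not tested. siNeg and Control cells themselves differed at 48 h: CENPC, CENPU and ZWINT were higher in siNeg cells and none of the 10 was lower (6.82% and 6.11% of all genes).

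**Figure D3:**
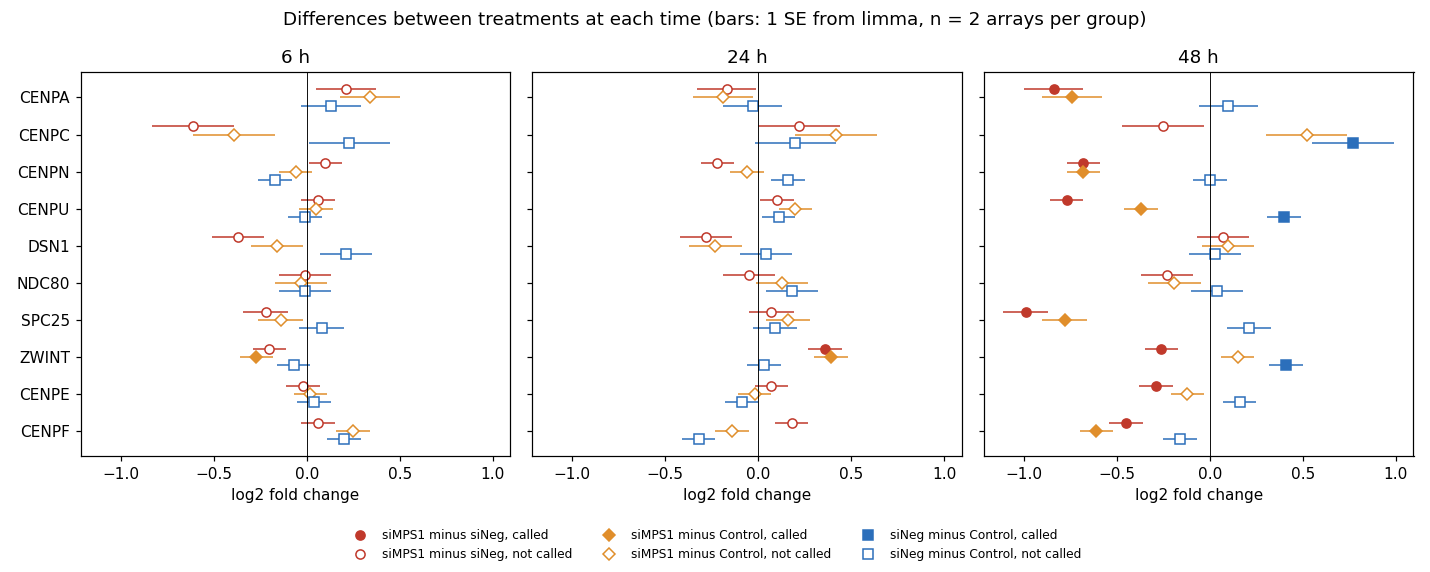
Log2 fold changes (horizontal axis) of the 10 genes between treatments at 6, 24 and 48 h, with bars of 1 SE from limma (2 arrays per group); filled symbols were called and open symbols were not. At 48 h the siMPS1 minus siNeg values run from -0.99 for SPC25 to 0.07 for DSN1.

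At 6 h none of the 10 was called between siMPS1 and siNeg cells by limma (7.7% of all genes were), while 3 (CENPC, DSN1 and ZWINT) had an unadjusted p under 0.05, as had 23.4% of all genes. Both siMPS1 arrays lay below both siNeg arrays for 4 of the 10, these and SPC25, as for 25.5% of all genes. Against Control at 6 h ZWINT alone was called, as lower (7.28% of all genes). At 24 h ZWINT alone was called, as higher in siMPS1 cells both against siNeg and against Control (5.14% and 5.48% of all genes were called higher). siNeg and Control cells gave 0 calls in limma at 6 h (3.82% of all genes called) and 0 at 24 h (0.933%). At an unadjusted p under 0.05 there was 1 at each time, CENPF, at 0.20 at 6 h and -0.32 at 24 h, where 18.8% and 14.7% of all genes passed.

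At the centromere itself, CENPA, the histone H3 variant of centromeric nucleosomes, read 5.36 and 5.89 at 6 h, 6.57 and 6.78 at 24 h and 5.87 and 6.15 at 48 h in siMPS1 cells. In siNeg cells CENPA read 5.34 and 5.49, 6.68 and 7.01, and 6.88 and 6.83 at these times. In Control cells it read 5.24 and 5.32, 6.85 and 6.89, and 6.73 and 6.78. The siMPS1 arrays overlapped those of siNeg at 6 and 24 h and lay below all 4 others at 48 h. The 48 h difference was -0.84 against siNeg (SE 0.16, adjusted p = 0.000573), which leaves 55.7% of the siNeg level, and -0.74 against Control (adjusted p = 0.0021). CENPA rose by 24 h in all 3 treatments, by 1.05 in siMPS1, 1.43 in siNeg and 1.59 in Control cells, and was called lower at 48 h than at 24 h in siMPS1 cells, at -0.67 (adjusted p = 0.00534). That last call was lost without siMPS1 replicate 2 of 24 h (adjusted p = 0.0554) or replicate 1 of 48 h (adjusted p = 0.0658).

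The values above are from probe set 210821_x_at, which names CENPA alone. The other CENPA probe set, 204962_s_at, had the higher mean but also names SLC35F6. It read 6.21 and 6.47 at 6 h and 8.25 and 8.24 at 24 h in siMPS1 cells, and rose by 1.90 there, by 2.16 in siNeg and by 1.91 in Control cells. On this probe set CENPA rose more in each treatment than on the first. In siMPS1 cells at 48 h it read 7.45 and 7.61, against 8.20 and 8.22 in siNeg and 8.16 and 8.05 in Control cells. Tested with 20107 probe sets one by one, it was lower by the same rule, at -0.68 against siNeg (adjusted p = 0.000182) and -0.57 against Control (adjusted p = 0.00103). Both CENPA probe sets placed the siMPS1 arrays below the other 4 at 48 h. Within siMPS1 cells 204962_s_at was also called lower at 48 h than at 24 h in this limma test of single probe sets (-0.71, adjusted p = 0.000216).

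CENPN, which reads the CENP-A nucleosome, showed 7.38 and 7.27 at 6 h, 8.12 and 7.98 at 24 h and 7.49 and 7.59 at 48 h in siMPS1 cells. The siNeg arrays gave 7.30 and 7.14, 8.21 and 8.33, and 8.14 and 8.31 for CENPN. Those of Control cells gave 7.28 and 7.50, 8.16 and 8.07, and 8.21 and 8.24. The 6 arrays at 6 h were mixed, and at 48 h both siMPS1 arrays were below all 4 others. The difference at 48 h was -0.68 against siNeg (SE 0.09, adjusted p = 3.01e-05) and -0.68 against Control (adjusted p = 4.35e-05), with siNeg and Control 0.00 apart. A separate CENPN probe set, 222118_at, read 5.41 and 5.26 in siMPS1 cells at 48 h, against 6.15 and 5.99 in siNeg and 6.26 and 6.21 in Control cells. It was also lower, at -0.73 against siNeg (adjusted p = 0.00215) and -0.90 against Control (adjusted p = 0.000492). Its changes from 6 to 24 h were 0.30 in siMPS1, 0.66 in siNeg and 0.39 in Control cells, of which that in siNeg cells alone was called, against 0.72, 1.05 and 0.72 on the first. At 24 h siMPS1 minus siNeg was -0.22 on the first and -0.40 on 222118_at, and siMPS1 minus Control -0.06 and -0.44, none called. With the mean of its probe sets CENPN was called lower against siNeg at 24 h by limma (-0.31, adjusted p = 0.0451).

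CENPU, a subunit of the constitutive network that docks Polo-like kinase at the kinetochore, stood at 7.60 and 7.64 at 6 h, 8.18 and 8.08 at 24 h and 7.61 and 7.69 at 48 h in siMPS1 cells. In siNeg cells the CENPU levels were 7.50 and 7.62, 8.06 and 8.0, and 8.44 and 8.39. In Control cells they were 7.58 and 7.57, 7.93 and 7.92, and 8.18 and 7.85. At 48 h the order was siMPS1 lowest, Control next and siNeg highest, with no overlap between the 3 pairs of arrays. siMPS1 was lower by the test against siNeg, at -0.77 (SE 0.09, adjusted p = 5.97e-06), and against Control, at -0.37 (adjusted p = 0.00622), and siNeg was higher than Control, at 0.40 (adjusted p = 0.00697). The difference from Control was not called without Control replicate 1 of 48 h (-0.20, adjusted p = 0.14) or siMPS1 replicate 1 of 48 h (-0.33, adjusted p = 0.0525). The siNeg difference from Control was lost without Control replicate 2 (0.23, adjusted p = 0.134) or siNeg replicate 1 of 48 h (0.37, adjusted p = 0.0675).

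CENPC, which joins the centromeric nucleosome to the outer kinetochore, was measured by a dim probe set. It read 4.30 and 4.10 at 6 h, 5.03 and 5.26 at 24 h and 4.63 and 4.83 at 48 h in siMPS1 cells. The siNeg values of CENPC were 4.83 and 4.79, 4.90 and 4.95, and 4.91 and 5.05. The Control values were 4.63 and 4.54, 4.98 and 4.47, and 4.29 and 4.13. The siMPS1 arrays were the lowest at 6 h and the highest at 24 h, and at 48 h Control was lowest. CENPC rose from 6 to 24 h in siMPS1 cells by 0.95 (SE 0.22, adjusted p = 0.00145), while the difference was 0.11 in siNeg and 0.14 in Control cells, neither called. The difference between the siMPS1 and siNeg changes, 0.84, was itself not called (adjusted p = 0.13). At 48 h siMPS1 minus siNeg was -0.25 (95% interval -0.70 to 0.21) and siMPS1 minus Control 0.52 (adjusted p = 0.0821). siNeg was higher than Control by 0.77 (adjusted p = 0.0246), a call that was lost when any 1 of its 4 arrays was left out (adjusted p from 0.0673 to 0.136).

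In the microtubule-binding part, NDC80, the subunit that contacts the microtubule, read 5.28 and 5.73 at 6 h, 7.65 and 7.48 at 24 h and 7.15 and 7.38 at 48 h in siMPS1 cells. The NDC80 levels of siNeg cells were 5.46 and 5.58, 7.76 and 7.48, and 7.39 and 7.61. Those of Control cells were 5.61 and 5.46, 7.48 and 7.39, and 7.54 and 7.36. NDC80 rose by 24 h in all treatments, by 2.06 in siMPS1, 2.10 in siNeg and 1.90 in Control cells. At 48 h the siMPS1 arrays were only just below those of siNeg and overlapped those of Control. The difference was -0.23 against siNeg (95% interval -0.53 to 0.07) and -0.19 against Control, neither called.

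SPC25, a partner of NDC80 in the same complex, read 5.41 and 5.14 at 6 h, 7.44 and 7.27 at 24 h and 6.36 and 6.56 at 48 h in siMPS1 cells. In siNeg cells SPC25 read 5.48 and 5.51, 7.30 and 7.27, and 7.31 and 7.58. In Control cells the readings were 5.38 and 5.45, 7.21 and 7.18, and 7.20 and 7.28. It rose by 24 h in all treatments, by 2.08 in siMPS1, 1.79 in siNeg and 1.78 in Control cells, and at 48 h the siMPS1 arrays stood apart below all others. The 48 h difference was -0.99 against siNeg (SE 0.12, adjusted p = 7.46e-06), which leaves 50.5% of the siNeg level, and -0.78 against Control (adjusted p = 0.000125). Within siMPS1 cells SPC25 fell by 0.89 between 24 and 48 h (adjusted p = 5.21e-05), while siNeg (0.16) and Control (0.04) were not called.

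DSN1, a subunit of the MIS12 complex that connects CENP-C to the NDC80 complex, read 6.46 and 6.23 at 6 h, 6.33 and 5.98 at 24 h and 6.75 and 6.40 at 48 h in siMPS1 cells. The DSN1 arrays of siNeg cells gave 6.74 and 6.69, 6.49 and 6.37, and 6.52 and 6.49. Those of Control cells gave 6.48 and 6.53, 6.32 and 6.46, and 6.39 and 6.56. The means of the 9 groups lay between 6.15 and 6.72. At 48 h the siMPS1 arrays lay on either side of those of siNeg and overlapped those of Control. The 48 h difference was 0.07 against siNeg (95% interval -0.22 to 0.36) and 0.10 against Control (95% interval -0.19 to 0.39). From 24 to 48 h DSN1 rose by 0.42 in siMPS1 cells (adjusted p = 0.0312), a call lost without siMPS1 replicate 2 of 24 h (0.25, adjusted p = 0.286) or replicate 1 of 48 h (0.25, adjusted p = 0.301).

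ZWINT, the partner of KNL1 needed for loading the corona, read 9.10 and 9.08 at 6 h, 10.25 and 10.33 at 24 h and 9.95 and 9.69 at 48 h in siMPS1 cells. The siNeg readings of ZWINT were 9.40 and 9.19, 9.91 and 9.95, and 10.06 and 10.10. The Control readings were 9.37 and 9.36, 9.90 and 9.89, and 9.54 and 9.80. siMPS1 arrays were the lowest of the 6 at 6 h and the highest at 24 h, and at 48 h lay below siNeg and overlapped Control. ZWINT was higher in siMPS1 cells at 24 h by 0.36 against siNeg (SE 0.09, adjusted p = 0.0128) and by 0.39 against Control (adjusted p = 0.00699). The first call was lost without siMPS1 replicate 2 (adjusted p = 0.101), siNeg replicate 1 (0.0988) or siNeg replicate 2 (0.0571) of 24 h, the second without siMPS1 replicate 2 (0.0591) or Control replicate 2 (0.0521). At 6 h ZWINT was lower than in Control cells by the test, at -0.27 (adjusted p = 0.0433), which was lost without either siMPS1 or either Control array of 6 h (adjusted p from 0.105 to 0.168) and without either siNeg or either Control array of 24 h (0.0531 to 0.0538).

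At 48 h ZWINT was lower in siMPS1 than in siNeg cells, at -0.26 (SE 0.09, adjusted p = 0.032). Without siMPS1 replicate 2 this ZWINT difference was -0.13 (adjusted p = 0.38), and it was also not called without siNeg replicate 1 (0.0798) or siNeg replicate 2 (0.125). Against Control it was 0.15 (adjusted p = 0.228), or 0.28 and called higher (adjusted p = 0.0486) without siMPS1 replicate 2. siNeg cells had more ZWINT than Control cells, by 0.41 (adjusted p = 0.00464), which was not called without Control replicate 1 (0.28, adjusted p = 0.0902). The mean of the siMPS1 arrays lay between those of siNeg and Control cells at 48 h.

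In the corona, CENPE, the kinesin that carries chromosomes to the spindle equator, read 5.88 and 6.02 at 6 h, 7.83 and 7.76 at 24 h and 7.29 and 7.36 at 48 h in siMPS1 cells. In siNeg cells CENPE read 6.02 and 5.92, 7.74 and 7.72, and 7.66 and 7.56. In Control cells the levels of CENPE were 5.95 and 5.90, 7.83 and 7.81, and 7.40 and 7.49. At 48 h the siMPS1 arrays were below all others, with Control nearer than siNeg. CENPE was lower against siNeg at 48 h, at -0.29 (SE 0.09, adjusted p = 0.0176), and not called against Control, at -0.12 (95% interval -0.30 to 0.06). The call was lost without siMPS1 replicate 1 (-0.25, adjusted p = 0.105) or siNeg replicate 1 of 48 h (-0.24, adjusted p = 0.124). Control cells also fell from 24 to 48 h, by 0.37 (adjusted p = 0.00556), a call lost without Control replicate 1 of 48 h (adjusted p = 0.0571), and siMPS1 cells fell by 0.47 (adjusted p = 0.000715).

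CENPF, a coiled-coil protein of the corona that binds microtubules, read 7.09 and 6.97 at 6 h, 8.82 and 8.85 at 24 h and 8.26 and 8.06 at 48 h in siMPS1 cells. The CENPF values of siNeg cells were 6.93 and 7.01, 8.58 and 8.74, and 8.64 and 8.58. Those of Control cells were 6.88 and 6.67, 8.99 and 8.97, and 8.74 and 8.79. At 48 h both siMPS1 arrays were below all others. The difference was -0.45 against siNeg (SE 0.09, adjusted p = 0.000789) and -0.61 against Control (adjusted p = 6.46e-05). These CENPF values are from probe set 207828_s_at, and 209172_s_at did not repeat the 48 h differences. Probe set 209172_s_at read 6.29 and 6.13 in siMPS1 cells at 48 h, against 6.09 and 6.34 in siNeg and 6.08 and 6.30 in Control cells, differences of 0.00 (SE 0.20) and 0.02 that were not called. From 6 to 24 h it rose by 1.29 in siMPS1, 0.98 in siNeg and 1.08 in Control cells, against 1.81, 1.69 and 2.20 on the first. The dim 207331_at was below the filter, with -0.41 (SE 0.39) against siNeg and -0.21 against Control, neither called. With that SE it cannot tell a difference of the size on the first probe set from no difference. With the mean of a gene's probe sets in place of one, CENPF was not called at 48 h against siNeg (-0.23, adjusted p = 0.145) or Control (-0.29, adjusted p = 0.0653).

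Whether the response to the siRNA differed between times was tested as a difference of differences. The siMPS1 minus siNeg difference was lower at 48 h than at 24 h for 6 of the 10 genes and higher for none (6.83% of all genes lower, 8.93% higher), with a median of -0.55 beside 0.02 over all genes. SPC25 (-1.05, adjusted p = 0.000395) and CENPU (-0.86, adjusted p = 0.000192) had the largest values of the 10, and CENPF, ZWINT, CENPN and CENPA were also called. CENPE missed the threshold at -0.36 (adjusted p = 0.0558), and passed it under 4 alternatives (adjusted p from 0.0352 to 0.0484) and without either siMPS1 array of 6 h (0.048 and 0.0485). Against 6 h, 5 genes had a lower difference at 48 h (SPC25, CENPA, CENPN, CENPU and CENPF) and none a higher one (9.3% and 10.9% of all genes). Between 6 and 24 h ZWINT alone was called, with a difference that was 0.57 higher at 24 h (SE 0.12, adjusted p = 0.0165, with 1.89% of all genes called higher). The ZWINT value was lost without any of siMPS1 replicate 2 of 6 h (0.0597), siMPS1 replicate 2 of 24 h (0.0511), siNeg replicate 1 of 6 h (0.0988) or siNeg replicate 1 of 24 h (0.0722, all adjusted p). CENPA between 24 and 48 h, at -0.68 (adjusted p = 0.0487), was lost without 13 of the 18 arrays taken singly (adjusted p up to 0.205), and CENPN, at -0.46 (adjusted p = 0.0253), without 4 (adjusted p up to 0.105). With the mean of its probe sets CENPF was not called from 24 to 48 h (-0.35, adjusted p = 0.148) nor over 6 to 48 h (-0.14, adjusted p = 0.58). With probe sets tested one by one, CENPA on 204962_s_at, which also names SLC35F6, was called lower from 24 to 48 h (-0.54, adjusted p = 0.0277). CENPF on 209172_s_at (-0.08, adjusted p = 0.927) and CENPN on 222118_at (-0.33, adjusted p = 0.422) were not. Over 6 to 48 h CENPF on 209172_s_at was not called (0.22, adjusted p = 0.719), while CENPN on 222118_at was lower (-0.69, adjusted p = 0.0433).

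**Figure D4:**
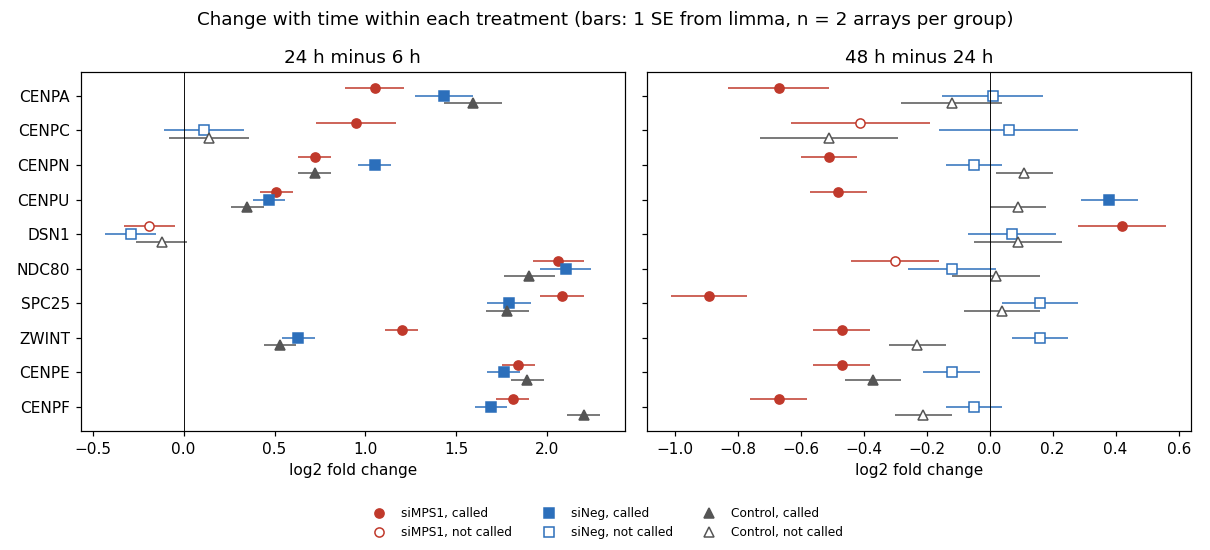
Log2 changes (horizontal axis) from 6 to 24 h (left) and from 24 to 48 h (right) of the 10 genes within siMPS1, siNeg and Control cells, with bars of 1 SE from limma (2 arrays per group); filled symbols were called. NDC80, SPC25, CENPE and CENPF lie at 1.69 or above in every treatment on the left, and on the right SPC25 in siMPS1 cells lies at -0.89.

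Over the 9 group means the members' profiles correlated with each other at a median r of 0.82 over 45 pairs, from -0.44 to 0.99 (the 9 means come from 3 treatments at the same 3 times). SPC25 was most like the mean profile of the other members (r = 0.98), followed by CENPE (0.96), NDC80 (0.95), CENPF (0.94), CENPA (0.93), ZWINT (0.91), CENPN (0.90) and CENPU (0.84). CENPC (0.46) and DSN1 (-0.42) stood apart, and all 9 pairs with a negative r included DSN1. Outside the centromere and kinetochore lists, the 5 genes with profiles most like the members' mean over the same 9 group means were KIF20A (r = 0.986), CCNB1 (0.985), STMN1 (0.985), PTTG1 (0.984) and CRYZL1 (0.983). KIF20A codes for a kinesin of late mitosis, CCNB1 for cyclin B1, STMN1 for the microtubule-destabilising protein stathmin, PTTG1 for securin and CRYZL1 for a quinone-oxidoreductase-like protein. At 48 h these differed between siMPS1 and siNeg cells by -1.13, -0.77, -0.64, -0.67 and -0.67, values that their choice by these group means largely fixes and that are a description only.

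The rest of the structure was followed with a list of 31 other centromere and kinetochore genes. Of these 19 were tested, SPC24 and KNL1 were below the filter, and 10 (NUF2 among them) had no probe set naming only the gene. At 48 h, 9 of the 19 were lower in siMPS1 than in siNeg cells and none was higher (13.5% and 15.7% of all genes). Their median was -0.53 (0.03 over all genes). Against Control cells 7 were lower and none higher (12.2% and 15.3% of all genes), with a median of -0.22 (0.05 over all genes). The smallest p-values against siNeg were those of SPDL1, which recruits dynein to the corona (-0.99, adjusted p = 5.85e-08), OIP5, a subunit of the MIS18 complex that licenses CENP-A loading (-1.01, adjusted p = 2.65e-07), and ITGB3BP, also called CENP-R, of the constitutive network (-0.81, adjusted p = 7.08e-07). HJURP, the chaperone that deposits CENP-A, was lower against siNeg, at -0.48 (adjusted p = 0.00184), and not called against Control, at -0.22 (adjusted p = 0.136). DSN1's partners in the MIS12 complex gave 0.23 for NSL1 (adjusted p = 0.0614), 0.08 for MIS12 (adjusted p = 0.461) and -0.53 for PMF1 (adjusted p = 0.0271). PMF1 was not called against Control (0.15), and siNeg was above Control by 0.68 (adjusted p = 0.0143).

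At 6 and at 24 h none of the 19 was called between siMPS1 and siNeg cells by limma. Of all 7828 genes, 270 were called higher and 333 lower at 6 h, and 402 higher and 455 lower at 24 h. At an unadjusted p under 0.05 there were 4 of the 19 at 6 h and 1 at 24 h, where 23.4% and 25% of all genes passed. Between 6 and 24 h, 11 of the 19 rose and 1 fell in siMPS1 cells, 11 rose and 3 fell in siNeg cells, and 12 rose and 2 fell in Control cells. Of all 7828 genes, 2064 rose and 1650 fell in siMPS1 cells, 1972 and 1495 in siNeg cells, and 2125 and 1247 in Control cells. OIP5 rose by 1.65 in siMPS1, 1.81 in siNeg and 1.65 in Control cells, and HJURP by 1.35, 1.33 and 1.36. SPDL1 was called lower at 24 h in each treatment, at -0.34 in siMPS1, -0.61 in siNeg and -0.47 in Control cells. MIS12 was called lower in siNeg (-0.38) and Control cells (-0.34), and PMF1 in siNeg cells (-0.45).

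**Figure D5:**
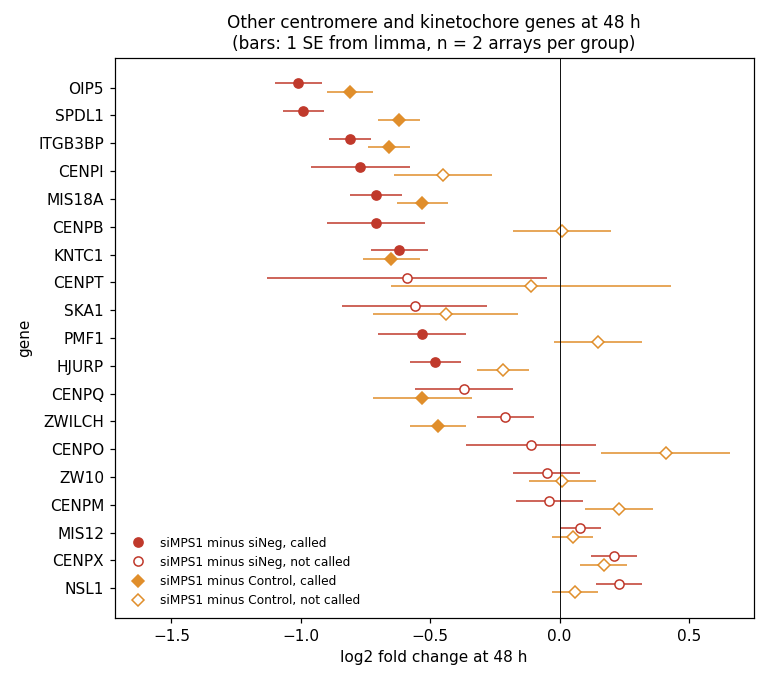
Log2 fold changes at 48 h (horizontal axis) of the 19 other centromere and kinetochore genes tested, siMPS1 minus siNeg (circles) and siMPS1 minus Control (diamonds), with bars of 1 SE from limma (2 arrays per group); filled symbols were called. The filled symbols all lie below 0, from OIP5 at -1.01 to ZWILCH at -0.47 against Control.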

How the data were processed

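Affymetrix arrays of U251 total RNA (250 ng labelled per array) were analysed from the deposited table of processed values. Per the submitters' processing notes the values come from MAS5, and the deposited values were taken as log2 signals. The base was inferred, because 2 raised to the values had a trimmed mean (2% trimmed) of 100.122 to 100.134 on every array. Arrays had thus been scaled alike before deposit, and no further normalization was applied. A pseudocount of 3 was added to the linear signal before log2 was taken again, so fold changes of dim probe sets are understated. Of 22277 probe sets 62 were controls, 19064 named exactly 1 gene, 1043 several and 2108 none, and 19052 of the single-gene ones matched the RefSeq gene table. After removal of the dimmest 40% by mean, each gene was represented by its probe set of highest mean, which left 7828 genes. Replicate arrays correlated at 0.971 to 0.982, and the 2 arrays of a group were identical in no group. Their number limits the precision.

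A model of 9 group means over the 18 arrays was fitted in limma 3.58.1 (R 4.3.3) with an intensity trend, and two-sided p-values were adjusted by Benjamini-Hochberg over all 7828 genes within each contrast. Alternatives were pseudocounts of 1 and 11, quantile normalization, median centring, no filter or a 60% filter, and the mean of a gene's probe sets. Others were a test of each probe set that passed the filter, no intensity trend, only the compared groups, a replicate block and leaving out each array. Keeping probe sets that name several genes was added after seeing the data. Replicate numbers were not used to pair the arrays in the main model, because deviations of same-numbered arrays correlated at only -0.14 to 0.10 over 36 pairs of groups. How replicates were made is not given, so these correlations cannot exclude that arrays were paired.

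The members, the other centromere and kinetochore genes, the cell markers and the motifs were chosen with earlier results of these data known. Named were the members, TTK, listed partners of the members, the 3 called genes of the other list with the smallest p in each direction at 48 h against siNeg (no rise was called) and the 5 genes outside both lists with the highest r to the members' mean standardised profile. Promoters are RefSeq windows of GRCh38.p14. Motif counts cover 35116 windows. Raw array files were not used here.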

Additional observations from a re-analysis of the deposited data

Results flagged for a closer look

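Differences of differences past the threshold are listed, each tested as the siMPS1 minus siNeg difference at the later time minus that at the earlier time (log2, limma). From 6 to 24 h this was so for ZWINT, whose difference became higher by 0.57 (adjusted p = 0.0165). From 24 to 48 h the difference became lower for SPC25 (-1.05, adjusted p = 0.000395), CENPU (-0.86, adjusted p = 0.000192), CENPA (-0.68, adjusted p = 0.0487), ZWINT (-0.63, adjusted p = 0.00221), CENPF (-0.63, adjusted p = 0.00205) and CENPN (-0.46, adjusted p = 0.0253). From 6 to 48 h it became lower for CENPA (-1.05, adjusted p = 0.00298), CENPU (-0.82, adjusted p = 0.000265), CENPN (-0.78, adjusted p = 0.000541), SPC25 (-0.77, adjusted p = 0.0038) and CENPF (-0.51, adjusted p = 0.00748). The siMPS1 arrays of 48 h enter the last 2 sets of values, and the part of their higher 3' to 5' control differences was not tested. On other probe sets, CENPF (209172_s_at, -0.08) and CENPN (222118_at, -0.33) were not called from 24 to 48 h, nor was CENPF from 6 to 48 h (209172_s_at, 0.22). CENPA from 24 to 48 h (204962_s_at, -0.54) and CENPN from 6 to 48 h (222118_at, -0.69) were called lower. With groups of 2 arrays, single arrays were not tested for standing apart.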

How the results depend on the processing

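Over 180 results of single members and 5382 alternative values, 5282 stayed on the same side of the threshold, 78 were no longer called and 22 became called. The sign differed from that of the reported value in 78, none of them called in either. The 7 and 5 members called at 48 h against siNeg and Control ranged from 5 to 7 and from 4 to 6 when single arrays were left out, and TTK was called in every alternative and with any single array left out. Small counts moved. The count of 1 at 24 h against siNeg was 2 with the mean of probe sets, where CENPN was called lower, and 0 without the intensity trend (0 to 1 with arrays left out). The count of 1 at 6 h against Control was 0 with quantile normalization, with no filter and without the trend, and 2 with the lowest 60% left out (0 to 2), and that of 1 at 24 h against Control ranged from 0 to 1. siNeg minus Control gave 1 in place of 0 at 6 h with median centring and 1 in place of 0 at 24 h with only the compared groups, and at 48 h ranged from 1 to 3. From 24 to 48 h in Control cells the count of 1 was 3 with quantile normalization, 0 with median centring and 2 without the trend (0 to 2). The count of 1 for the difference of differences from 6 to 24 h was 0 without the trend (0 to 1). At 48 h against siNeg, ZWINT was also not called with quantile normalization (adjusted p = 0.0611), no filter (0.0567), no trend (0.089) or only the compared groups (0.0591), nor CENPE with only the compared groups (0.0515). For the difference of differences from 24 to 48 h, CENPA was not called with a pseudocount of 1 (0.0501), no filter (0.0801), no trend (0.0797) or only the compared groups (0.0513), nor CENPN with the mean of probe sets (0.0527) or no trend (0.0601), while CENPE was called with quantile normalization (0.0484), the lowest 60% left out (0.047), the mean of probe sets (0.0352) and no trend (0.0437). Median centring moved the median of all genes for siMPS1 minus Control at 6 h to -0.17, against 0.04, and for Control from 6 to 24 h to -0.05, against 0.12; CENPU in Control cells (0.17, adjusted p = 0.179) was then not called. For siNeg minus Control at 48 h, CENPC was not called with no filter (adjusted p = 0.0584) or only the compared groups (0.0683). DSN1 from 24 to 48 h in siMPS1 cells was not called with only the compared groups (adjusted p = 0.104). A replicate block left 7 members called at 48 h against siNeg and moved no count of members. Dim probe sets such as that of CENPC limit what 2 arrays per group can show. Fits without one array leave a group of 1 array, assumed to vary like the others. The cause of these differences was not tested.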
